A study of Mus musculus with 2 samples.

Results

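The cells described here are the regulatory T cells (Tregs) of mouse adipose tissue in a single-cell RNA sequencing study of diet. They were taken as the cells of the authors' cluster 7 that carried at least 1 unique molecular identifier (UMI, a captured transcript molecule) of Foxp3 or Ikzf2, counting both genes together. This rule found 284 cells among 10017 clustered cells, of which 99 of 4458 came from the chow library and 185 of 5559 from the ketogenic library. Both libraries held CD45+ leukocytes resident in the adipose tissue of adult wild-type C57BL/6 mice. The control animals ate normal chow and the others a ketogenic diet for 1 week, and an intravenous label had served to leave out leukocytes inside blood vessels. The series title names visceral adipose tissue. Each diet is 1 library, the number, sex and exact age of its mice are not given in the sources used here, and no difference between diets below has a replicate check or a test.

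Tregs are CD4+ T cells that restrain other immune cells. They depend on the transcription factor Foxp3, most carry the related factor Helios (encoded by Ikzf2), and they act through surface molecules such as CTLA-4 and CD25, through cytokines such as interleukin-10, and by taking up interleukin-2. Fat tissue of lean mice is known for a Treg population that expresses the interleukin-33 receptor ST2, the factors Gata3 and PPARγ, the receptor KLRG1 and the repair factor amphiregulin, and that is linked to insulin sensitivity.

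Expression is given as CPM, a gene's UMIs scaled by all UMIs of the same set of cells in the same library. Square brackets hold 95% intervals (exact Poisson for summed UMIs, exact binomial for shares, exact conditional for ratios), and they cover counting error only. A log2 ratio has 0.5 added to each count. The Tregs were shallow: a chow Treg had a median of 2236 UMIs (range 1699–22682) and a ketogenic Treg 3297 UMIs (range 2061–23217), against 3469 and 3461.5 over all cells of the libraries. Summed, they held 266433 and 803059 UMIs. The libraries shared 41 cell barcodes, and 1 Treg of each library carried such a barcode, with none that was a Treg in both.

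Transcripts of other cells were present in the Tregs and differed between the libraries. The 15 macrophage and monocyte markers examined summed to 4399 CPM in chow and 1443 CPM in ketogenic Tregs, and the 12 dendritic cell markers to 7747 and 8238 CPM. Of the Tregs, 1 chow Treg with 22682 UMIs and 6 ketogenic Tregs with 10521 to 23217 UMIs held at least 30 UMIs of either list, and they supplied 8.51% and 12.4% of all Treg UMIs. All 7 also had T cell receptor or CD3 transcripts, but the chow cell had only 1 such UMI and the ketogenic cells 8 to 56. The other Tregs had a median of 7 in chow and 16 in ketogenic cells, at median depths of 2210 and 3245 UMIs. Whether the 7 are T cells was not tested. Without these 7 cells, the lists stood at 2162 and 536 CPM for macrophage and 3282 and 1413 CPM for dendritic markers. Of the macrophage list, 10 genes had at least 10 UMIs in Tregs, and 6 of them were at least 2-fold lower and none 2-fold higher under the ketogenic diet. At least 3 UMIs of that list were found in 79 of 99 chow and 47 of 185 ketogenic Tregs. In cluster 1, which was highest for granzyme B and should lack lysozyme, 71.8% of chow and 23.5% of ketogenic cells had a Lyz2 UMI, and 3.87% and 24.95% had one of the immunoglobulin gene Iglc1. The part of such RNA from other cells in the differences below was not tested. Diet ratios of named pathway genes that these 7 myeloid-rich cells move by over 1.5 times or across 2-fold are given with and without them.

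**Figure D1:**
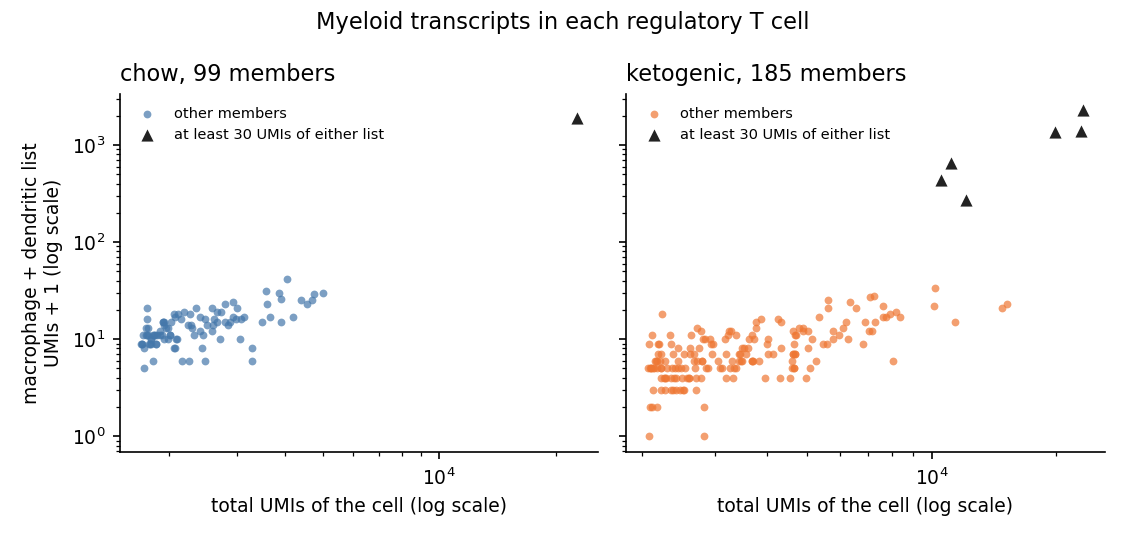
Each point is 1 regulatory T cell, with its total UMIs on the x axis and the summed UMIs of the macrophage and dendritic marker lists plus 1 on the y axis (both log scales), chow on the left and ketogenic diet on the right. Triangles mark the 1 chow and 6 ketogenic cells with at least 30 UMIs of either list, at the upper right of each panel.

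The marker genes matched the label for the set as a whole, though 51 of 99 chow and 85 of 185 ketogenic Tregs had no Foxp3 UMI. The 5 genes that mark these cells, Tnfrsf4 (the receptor OX40), Ikzf2, Ctla4, Foxp3 and Il10, were the 5 highest of all genes when the Tregs of both libraries were set against all other clustered cells by the ratio of CPM plus 20. Tnfrsf4 stood at 1066 CPM in Tregs and 35.7 CPM in the rest, Ctla4 at 524 and 24.8 CPM, and Il10 at 189 and 5.53 CPM. The next 10 were AA467197, Frmd5, Tnfrsf9 (the receptor 4-1BB), Areg (amphiregulin), Klrg1, Rln3 (relaxin-3), Cpm (a carboxypeptidase), Il2ra (CD25), Ccr3 (a chemokine receptor) and Cxcl3 (a chemokine). Since Foxp3 and Ikzf2 chose the cells and the authors' clustering rests on the genes of these same cells, these values describe the set and test nothing. At least 2 of Ctla4, Tnfrsf4, Il10, Il2ra and Tnfrsf18 had a UMI in 87 of 99 chow and 175 of 185 ketogenic Tregs. The same was so for 40 of 61 chow and 96 of 143 ketogenic cells of cluster 7 outside the rule, so these 5 genes alone do not mark a single cell as a Treg. Every one of the 284 cells had a UMI of a CD3 chain or a T cell receptor constant region, though the myeloid-rich chow cell had only 1. Cd4 was found in 18 of 99 chow and 45 of 185 ketogenic Tregs, at 86.3 CPM [54.7–129.5] in chow Tregs and 66.0 CPM [49.4–86.3] in ketogenic Tregs. Cd8a or Cd8b1, the chains of CD8, had a UMI in 2 of 99 chow and 16 of 185 ketogenic Tregs. Cd8a had 0 chow UMIs, which allows up to 3 UMIs in all, and 6 ketogenic UMIs in 4 cells, and Cd8b1 had 2 and 19 UMIs in 2 and 13 cells. Of 15 markers of stromal, fat, vessel and red cells and neutrophils, 9 had no UMI in any Treg, among them Adipoq, Col1a1 and Dcn. The other 6 were Pecam1 (7 and 20 UMIs), Hba-a1 (0 and 40), Pdgfra and Hbb-bs (1 and 0 each), S100a8 (2 and 3) and S100a9 (3 and 3).

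Foxp3 was most frequent in cluster 7, though many cells with a Foxp3 UMI lay in other clusters, and Ikzf2 was shared more widely. After every cell was thinned to 1000 UMIs, 16.2% of chow and 12.2% of ketogenic cells of cluster 7 had a Foxp3 UMI. The next cluster was cluster 2, with 1.81% and 1.45%, and cluster 3, which was highest for Lyz2 and should lack Foxp3, had 0.195% and 0.0598%. Unthinned, 48 of 160 chow and 100 of 328 ketogenic cells of cluster 7 had one (30% and 30.5%), at median depths of 2489 and 3528 UMIs, against 1.16% and 0.6897% in cluster 3 at 5543 and 5589 UMIs. Of all clustered cells with a Foxp3 UMI, 48 of 92 chow and 100 of 165 ketogenic cells were Tregs by the rule. Ikzf2 reached 35.8% and 33.4% of thinned cells of cluster 7, but also 19.4% and 20.3% of cluster 4 and 10.6% and 11.5% of cluster 11. Of all clustered cells that had a Foxp3 or Ikzf2 UMI, 551 chow and 1119 ketogenic cells, the Tregs were 17.97% and 16.5%.

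**Figure D2:**
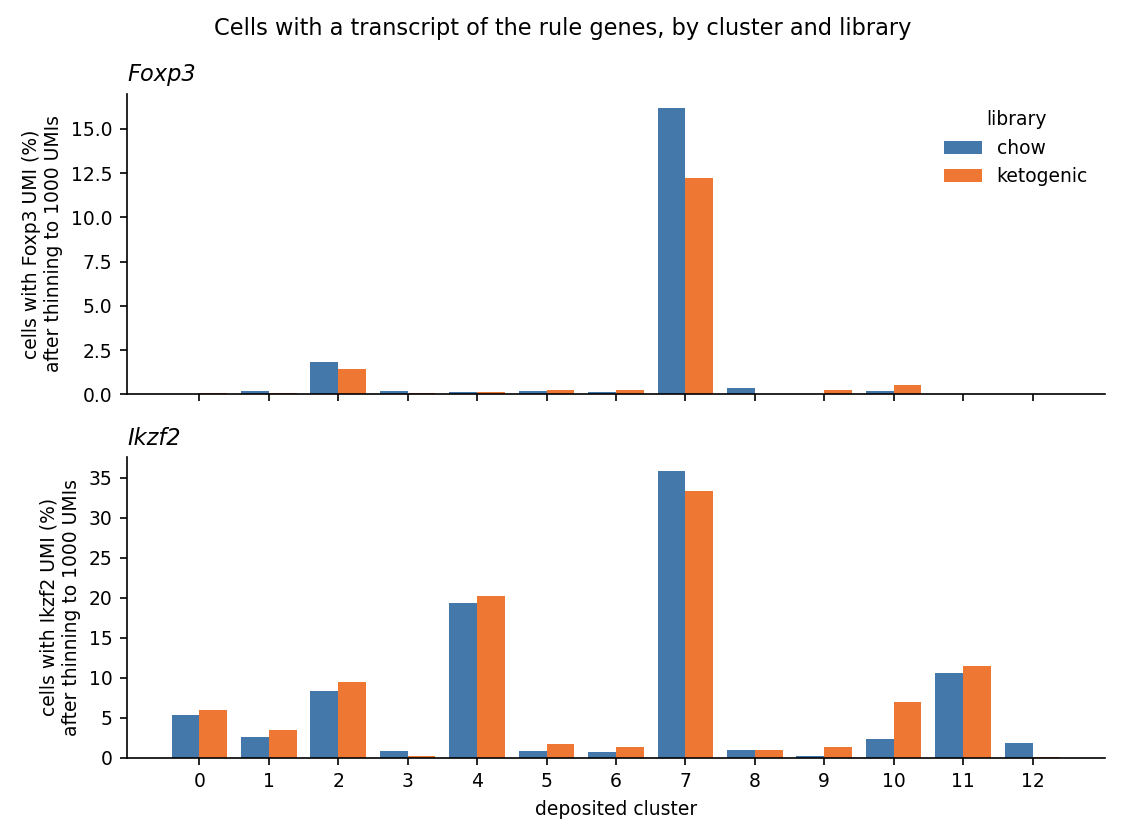
Bars give the share of cells (percent) with at least 1 UMI of Foxp3 (top) or Ikzf2 (bottom) in each of the 13 deposited clusters after thinning each cell to 1000 UMIs, for the chow and the ketogenic library. Cluster 7 is the highest for both genes in both libraries, and cluster 4 is the next for Ikzf2.

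Within the Tregs, 38 chow and 92 ketogenic cells had both transcripts, 10 and 8 had Foxp3 alone, and 51 and 85 had Ikzf2 alone. A sum of exactly 1 UMI, just inside the threshold, was the case for 31 chow and 29 ketogenic cells, and 61 and 143 cells of cluster 7 lay just outside with none. Cells just inside had Ctla4 at 263 CPM in the chow and 381 CPM in the ketogenic library. Cells with a sum of at least 2 had 720.1 and 542 CPM, and cells just outside 94.9 and 58.9 CPM. Cd40lg, the helper T cell ligand CD40L, ran the other way, at 68.3 and 71.3 CPM just inside, 18.3 and 22.2 CPM at 2 or more, and 285 and 265 CPM outside. Cells with a sum of 1 thus lay between the other Tregs and the rest of the cluster for both genes.

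Tregs made up a larger share of the ketogenic library than of the chow library. They were 2.22% [1.81–2.697] of clustered chow cells and 3.33% [2.87–3.83] of clustered ketogenic cells, a ratio of 1.499 [1.17–1.93]. The direction depended on what they were counted against. Trac, a T cell receptor constant region, was found in clusters 2, 7 and 11 and also in cluster 4. Of the cells of clusters 2, 7 and 11 together, Tregs were 21.8% in the chow and 14.03% in the ketogenic library, which gave a ratio of 0.645 [0.502–0.831]. Of cluster 7 alone they were 61.9% and 56.4%, a ratio of 0.912 [0.7103–1.18], whose interval includes no difference. Clusters 3 and 8, the highest for Lyz2 and for Retnla, were much smaller under the ketogenic diet (859 against 145 and 362 against 47 cells), and with both left out of the denominator (3237 and 5367 cells) the ratio was 1.13 [0.878–1.45]. Chow Tregs were also the shallower ones. Thinned to 1000 UMIs, 68.5 chow and 124 ketogenic cells would be expected to pass the rule, a ratio of 1.45 [1.07–1.96]. Among cells with at least 3000 UMIs, by contrast, 21 of 2556 chow and 103 of 3710 ketogenic cells were Tregs, a ratio of 3.38 [2.099–5.69], so the size of the ratio depended on how depth was treated. Foxp3 alone gave 48 and 100 cells and a ratio of 1.67 [1.17–2.41].

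Of the genes known of ST2-positive fat Tregs, Il1rl1, Klrg1, Gata3 and Areg were frequent in the Tregs, and Pparg was not, with a UMI in 3 of 99 chow and 34 of 185 ketogenic Tregs. Areg stood at 2068 CPM [1899–2248] in chow Tregs and 1824 CPM [1732–1920.1] in ketogenic Tregs, and was highest in Tregs among the Tregs, the other cells of cluster 7 and the 12 other clusters in both libraries. In Tregs with Ikzf2 alone Areg was at 1133 CPM [971–1314] in chow and 1571 CPM in ketogenic cells. The other cells of cluster 7 had 1178 CPM [1042–1326] and 960 CPM, so the chow excess lay in the Tregs with Foxp3 (3341 CPM). Klrg1, an inhibitory receptor of differentiated lymphocytes, was also highest in Tregs, at 803 CPM [699–918] in chow Tregs and 689.9 CPM [634–749.8] in ketogenic Tregs. Il1rl1, which encodes ST2, was second to cluster 0 in both libraries, at 739 CPM [639.7–850.2] in chow Tregs and 417 CPM [374–464] in ketogenic Tregs, where cluster 0 had 790.4 and 513 CPM. Gata3, the factor that drives ST2 expression in type 2 lymphocytes, was likewise highest in cluster 0 (583 and 722 CPM), with 495 against 534 CPM in chow and ketogenic Tregs. The other cells of cluster 7 had 496 and 443 CPM of Gata3 and 432 and 329 CPM of Il1rl1, chow first. In Tregs with Ikzf2 alone Il1rl1 was at 632 and 339 CPM. All 4 genes together had a UMI in 42 chow and 76 ketogenic Tregs, 3 of them in 24 and 77, and none in 3 and 4.

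Tregs with a Foxp3 UMI and those with Ikzf2 alone differed in the level of several genes. Ctla4 stood at 744 CPM [594–922] in the 48 chow Tregs with Foxp3 and at 397 CPM [304–510.2] in the 51 with Ikzf2 alone. Under the ketogenic diet it stood at 614 CPM [540.4–696] in 100 cells and at 417 CPM [356–486] in 85. The other cells of cluster 7, with neither transcript, had 94.9 CPM [59.5–144] and 58.9 CPM [41.2–81.5]. Tnfrsf4 and Il2ra had the same order in both libraries, with 1063 against 742 CPM and 523 against 293 CPM under chow. Nkg7, a granule protein of cytotoxic cells, ran the other way, at 124 CPM [67.8–208] with Foxp3 and 508 CPM [401–634] with Ikzf2 alone under chow, and at 345 CPM [291–408] and 792 CPM [707–884] under the ketogenic diet. Without the myeloid-rich cells, Nkg7 in the cells with Ikzf2 alone was 581 and 823 CPM. Ncr1, an NK cell marker, was at 22.2 CPM [10.2–42.2] with Foxp3 and 83.0 CPM [57.1–117] with Ikzf2 alone under the ketogenic diet. The other ketogenic cells of cluster 7 had 81.8 CPM of Ncr1. Under chow Ncr1 was at 26.6 CPM with Foxp3 and 32.6 CPM with Ikzf2 alone, from 3 and 5 UMIs. Rln3 had no common order, at 168 and 273 CPM in the chow and 163 and 136 CPM in the ketogenic library, with overlapping intervals.

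Some effector molecules were unevenly spread over the cells. Il10 had a UMI in only 18 of 99 chow and 30 of 185 ketogenic Tregs, and the 5 cells with the most held 60.0% of 50 chow UMIs and 63.8% of 152 ketogenic UMIs. Gzmb, the protease granzyme B, was found in 21 of 99 chow and 65 of 185 ketogenic Tregs, with 63.5% and 33.3% of its UMIs in 5 cells. Penk, which encodes the opioid precursor proenkephalin, was found in 1 of 99 chow and 8 of 185 ketogenic Tregs, and 5 cells held 88.6% of its 44 ketogenic UMIs. Ctla4, Tnfrsf4 and the effector Areg were more even, with 18.8%, 15.5% and 17.5% of ketogenic and 24.1%, 20.1% and 28.7% of chow UMIs in 5 cells. Mki67 or Top2a, genes of dividing cells, had a UMI in 1 of 99 chow and 12 of 185 ketogenic Tregs. T cell receptor variable segments were seen in 5 and 13 cells only, too few to describe clones.

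Against the other cells of the same cluster, Tregs were higher for Ctla4, Tnfrsf4, Klrg1 and Il10 and a set of genes of mixed roles, and lower for Il5, Csf2 and Cd40lg. The other 61 chow and 143 ketogenic cells of cluster 7 had neither rule gene, a median of 3100 and 3723 UMIs, and T cell receptor transcripts too. Trbc2 was at 672 against 656 CPM in the chow and 1176 against 1182 CPM in the ketogenic library, Tregs first, Trac was higher in Tregs (log2 0.48 and 0.53), and of 13 genes of the receptor and its signals with enough UMIs 3 were higher and 5 lower in Tregs in both libraries. Genes with at least 50 UMIs over both sets of cells in each library were compared within each library, 1218 in all, and at least 2-fold means an absolute log2 ratio of at least 1. At least 2-fold higher in Tregs in both libraries were 17 genes (1.4%), among them Foxp3 and Ikzf2, which the rule fixed, which leaves 15, and at least 2-fold lower in both were 13 genes (1.07%). Genes could reach the minimum through the cells where they were high. In the chow library Rln3, Ctla4 and Il10 had 61, 145 and 50 UMIs in Tregs and 9, 22 and 12 in the other cells, and Ccl1 had 2 and 63. The counts past 2-fold are therefore a description only. Leaving out the myeloid-rich cells gave 23 and 12 genes, with 1108 compared. Among cells with at least 3000 UMIs, of which only 21 were chow Tregs, 4 and 9 genes were past 2-fold, with 687 compared.

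Of the inhibitory and costimulatory receptors, Ctla4 (ENSMUSG00000026011, chromosome 1 from 60887000 to 60915832, plus strand) was at 544 against 94.9 CPM in the chow and 517 against 58.9 CPM in the ketogenic library, Tregs first, with log2 ratios of 2.49 in the chow and 3.12 in the ketogenic library. Tnfrsf4 was at 878 against 268 CPM in the chow and 1128 against 239 CPM in the ketogenic library, with log2 ratios of 1.71 and 2.24. Klrg1 had log2 ratios of 1.53 and 1.09. Il10 stood at 188 against 51.8 CPM in the chow and 189 against 8.18 CPM in the ketogenic library, with log2 ratios of 1.81 and 4.4, the latter against 5 UMIs in the other ketogenic cells. Gzmb (log2 1.06 and 2.34), Tox, a factor of chronically stimulated T cells (log2 1.21 and 1.02), and Serpinb6a, a protease inhibitor (log2 1.18 and 1.08), were past 2-fold too, outside the 12 named by rank. The remaining named genes on this side were Gem, a small GTPase (log2 1.74 and 1.49), AA467197 (2.76 and 1.49), Arl5a, a trafficking GTPase (1.17 and 1.52), Glrx, glutaredoxin (2.16 and 1.17), Itgav, the integrin αv chain (1.81 and 1.13), Gimap7, a lymphocyte GTPase (1.26 and 1.11), and Arhgap31, a GTPase-activating protein (2.41 and 1.09). Among cells with at least 3000 UMIs, which leaves 21 chow Tregs, the chow log2 ratio was 0.32 for Itgav, 0.46 for Gimap7, 0.57 for Klrg1 and 0.63 for Gem, short of 2-fold, and the ketogenic one was 0.88 for Gimap7, 0.94 for Klrg1 and 0.86 for Glrx. Arl5a was at 0.995 in chow with 5 added to each count.

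Rln3 had the highest smaller ratio of the 2 libraries among all named genes. It encodes relaxin-3, a peptide known chiefly from the brain, lies on chromosome 8 from 84042929 to 84045000, minus strand (ENSMUSG00000045232, GRCm38), and was counted 61 times in chow and 120 times in ketogenic Tregs against 9 and 15 times in the other cells. The levels were 229 against 38.8 CPM in the chow and 149 against 24.5 CPM in the ketogenic library, Tregs first, with log2 ratios of 2.49 in the chow and 2.57 in the ketogenic library. It had a UMI in 32 of 99 chow and 58 of 185 ketogenic Tregs, or 18.9% and 13.6% after thinning, against 0.124% and 0.378% of cluster 3. The next highest sets were cluster 11, at 116 and 77.7 CPM, and cluster 0, at 80.3 and 63.1 CPM. The gene ends 339 bases before the start of Il27ra, the interleukin-27 receptor, on the same strand, so reads that run from Rln3 towards Il27ra, or come from an unannotated early start of Il27ra, cannot be told apart here. Il27ra itself was at 7.51 CPM from 2 UMIs in chow and 33.6 CPM from 27 UMIs in ketogenic Tregs and did not follow the order of Rln3, with 47.5 and 35.98 CPM in the other cells of cluster 7.

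The upstream sequences of the 2 genes with the highest such ratios, Rln3 and Ctla4, are shown because their transcripts set Tregs apart from the rest of the cluster in both libraries. Each is the 250 bases before the RefSeq start of the gene (GRCm38.p6), read 5′ to 3′ on the gene's strand, at chr8:84044980-84045229 (minus strand) and chr1:60908775-60909024 (plus strand). The Ctla4 window lies within the span that GENCODE gives the gene, which includes an earlier noncoding start, and the last 21 bases of the Rln3 window lie within the GENCODE span of Rln3. Capitals mark matches, on either strand and without overlaps among them, to the core letters known for NFAT (GGAAAA), for forkhead proteins (TAAACA) and for the zinc finger family of Gata3 (AGATAA).
Rln3: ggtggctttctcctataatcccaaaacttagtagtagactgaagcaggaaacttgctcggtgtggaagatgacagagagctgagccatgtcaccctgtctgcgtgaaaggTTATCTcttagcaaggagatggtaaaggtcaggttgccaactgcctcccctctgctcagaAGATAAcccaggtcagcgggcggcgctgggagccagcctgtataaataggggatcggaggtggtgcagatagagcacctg
Ctla4: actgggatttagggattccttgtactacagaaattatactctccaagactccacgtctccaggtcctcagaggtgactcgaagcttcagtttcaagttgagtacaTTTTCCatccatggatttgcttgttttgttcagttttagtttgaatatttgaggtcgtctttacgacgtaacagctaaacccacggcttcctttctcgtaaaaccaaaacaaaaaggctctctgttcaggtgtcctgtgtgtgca
The Rln3 window held 2 matches to AGATAA and none to the others, and the Ctla4 window 1 match to GGAAAA and none to the others. Over 32851 windows of the same length, 20.4% held GGAAAA, 12.03% TAAACA and 9.99% AGATAA, so such matches are common and are given as a description.

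The genes lowest in Tregs included Il5, Cd40lg and Csf2. Il5, the eosinophil growth factor, stood at 22.5 against 207 CPM in the chow and 43.6 against 334 CPM in the ketogenic library, Tregs first, with log2 ratios of −3.101 in the chow and −2.92 in the ketogenic library. Cd40lg stood at 37.5 against 285 CPM in the chow and 29.9 against 265 CPM in the ketogenic library, with log2 ratios of −2.86 and −3.12. Csf2 (GM-CSF), Ccl1 (a chemokine) and Tnfsf11 (RANKL) had log2 ratios of −2.98 and −2.54, −4.87 and −2.36, and −2.96 and −2.25. Furin, a protease that matures TGF-β and other precursors, was at 244 against 893 CPM in the chow and 164 against 703 CPM in the ketogenic library, log2 −1.86 and −2.09. The other named genes were Uhrf2 (−1.85 and −1.54), Ramp3, a partner of calcitonin family receptors (−1.296 and −2.33), Gm20186 (−1.29 and −1.21), Rgcc, a cell cycle regulator (−1.19 and −1.61), Thy1, a T cell surface protein (−1.12 and −1.37), and Neurl3 (−1.097 and −1.103). Hmgb2, a chromatin protein, was the 13th gene past 2-fold (−1.25 and −1.01). In the chow library Gm20186 was at −0.45 among cells with at least 3000 UMIs, and Ramp3 at −0.95 when cells with at least 2 UMIs of the rule genes were set against those with 0.

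**Figure D3:**
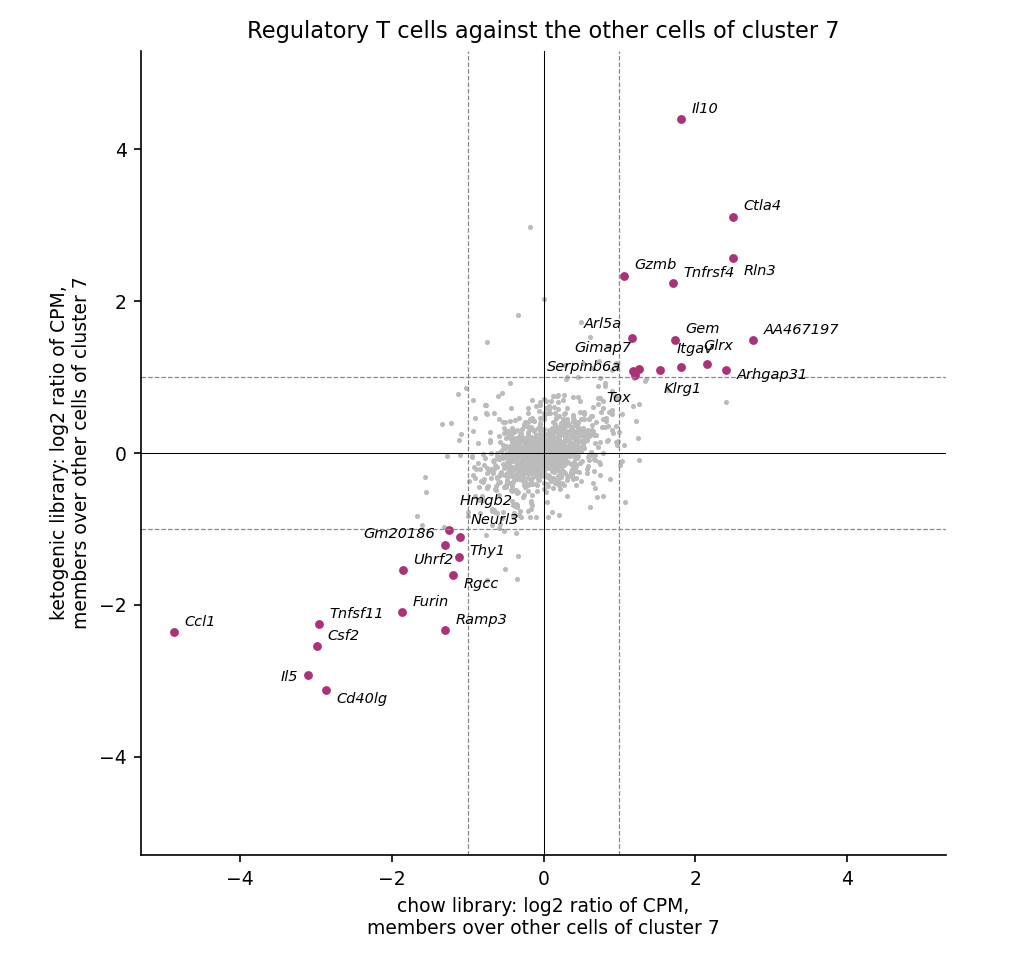
Each grey point is 1 of the genes with at least 50 UMIs in each library, placed by its log2 ratio of CPM in Tregs over the other cells of cluster 7 in the chow library (x axis) and in the ketogenic library (y axis), with Foxp3 and Ikzf2 left out. Purple points are the 15 genes at least 2-fold higher and the 13 at least 2-fold lower in both, and dashed lines mark 2-fold.

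The lists of pathway genes add the genes that were not past 2-fold. Of all 1218 genes, 391 (32.1%) were higher and 392 (32.2%) lower in Tregs in both libraries. Of 8 Treg core genes with enough UMIs, leaving out Foxp3 and Ikzf2, 6 were higher in both and 2 at least 2-fold so (Ctla4 and Tnfrsf4). Of 13 adipose Treg genes, 9 were higher in both, with Klrg1 at least 2-fold so over all cells. Of 9 genes of the TNF receptor family and NF-κB, 6 were higher and 2 lower in both. Of the 17 helper genes, 3 had enough UMIs, the lower genes Il5, Csf2 and Cd40lg described above. In the chow library they had 6, 7 and 10 UMIs in Tregs and 48, 51 and 66 in the other cells, so they reached the minimum of 50 through the cells where they were high, and their count supports nothing. Genes of the other lists could reach the minimum in the same way, so the counts of those lists are a description too. Of 89 ribosomal protein genes, 50 were lower in both and none reached 2-fold. Since the other cells of the cluster were chosen for having no UMI of the rule genes, genes that go with those would differ by construction to an extent that was not tested.

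Between the diets, Ctla4 stood at near the same level and Tnfrsf4 and Tnfrsf18 were somewhat higher under the ketogenic diet. The levels of Foxp3 and Ikzf2 are a description only, since each Treg had to hold 1 of their UMIs and chow Tregs were shallower. How far this sets their CPM was not tested. Ctla4 was at 544 CPM [459–640.4] in chow Tregs and 517 CPM [468–569] in ketogenic Tregs, a log2 ratio of −0.08. Ikzf2 was at 833 CPM [727–950.3] in chow Tregs and 846 CPM [783–912] in ketogenic Tregs (log2 0.02) and Foxp3, the other rule gene, at 270.2 CPM [211–340.3] in chow Tregs and 187 CPM [158–219] in ketogenic Tregs (log2 −0.54). Il10 stood at 188 CPM [139–247] in chow Tregs and 189 CPM [160.4–222] in ketogenic Tregs (log2 0.00, ranging from −0.35 to 0.69 over the alternatives, with 17 of its 50 chow UMIs in 1 cell), Il2ra at 390.3 against 341 CPM (log2 −0.198), Tnfrsf4 at 878 against 1128 CPM (log2 0.36) and Tnfrsf18, the receptor GITR, at 739 against 949 CPM (log2 0.36), chow first. The ratios, ketogenic over chow, were 0.9496-fold [0.784–1.16] for Ctla4 and 1.01-fold [0.728–1.42] for Il10, whose intervals include no difference, and 1.28-fold [1.11–1.49] for Tnfrsf4, whose interval does not. The T cell receptor chains were higher under the ketogenic diet, with Trac at 428 against 735 CPM and Trbc2 at 672 against 1176 CPM, whereas Cd3e was at 342 against 359 CPM. Trac was higher under the ketogenic diet in 11 of the 12 other clusters and Trbc2 in 12 of the 12 other clusters as well.

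Over all 2556 genes with at least 50 UMIs in the Tregs of both libraries together, 104 (4.07%) were at least 2-fold higher and 34 (1.33%) at least 2-fold lower under the ketogenic diet. The median log2 ratio was 0.08, and the 5th and 95th percentiles were −0.66 and 0.94. Either way, 138 genes (5.4%) were past 2-fold. Most of the 104 were low genes, with a median of 8 chow UMIs, so that their ratios carry wide counting intervals. With 5 in place of 0.5 added to each count, 20 were higher and 46 lower. Many were not particular to Tregs: 80 of the 104 were also higher in the other cells of cluster 7, against 1405 of all 2556 genes, and 71 were higher in at least 10 of the 12 other clusters, against 811 of all. Of the 34 lower genes, 29 were also lower in the other cells of cluster 7, against 1151 of all, and 24 in at least 10 other clusters, against 356 of all. Without the myeloid-rich cells, 88 of the 104 and 31 of the 34 were still past 2-fold.

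Named by rank, the genes highest under the ketogenic diet began with Nrgn, neurogranin, a calmodulin-binding protein, with 2 and 65 UMIs in 2 chow and 27 ketogenic cells, 7.51 CPM [0.909–27.1] against 80.9 CPM [62.5–103], and a ratio of 10.8-fold [2.87–90.9]. Rsl1d1, a nucleolar protein, had 3 and 58 UMIs and a ratio of 6.41-fold [2.09–32.01]. Cd7, a receptor of T and NK cells, had 4 and 73 UMIs, 15.01 against 90.9 CPM (log2 2.44, and 2.04 without the myeloid-rich cells). Hsd11b1, the enzyme that activates glucocorticoids, had 5 and 80 UMIs in 5 of 99 and 59 of 185 cells, 18.8 CPM [6.09–43.8] against 99.6 CPM [78.99–124] (log2 2.28). Hsd11b1 was also higher in 11 of the 12 other clusters, with a log2 ratio of 1.68 in the other cells of cluster 7. Atg3, an enzyme of autophagy, had 5 and 75 UMIs (log2 2.19).

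Then came Wbp2 (4 and 50 UMIs, log2 1.897), the RNA helicase gene Ddx39 (7 and 78 UMIs, log2 1.796), Stxbp2, which serves granule release (4 and 46 UMIs, log2 1.78), and Snx17, a sorting nexin (6 and 66 UMIs, log2 1.76). Ctsw, the cathepsin of cytotoxic lymphocytes, had 10 and 105 UMIs, 37.5 against 131 CPM (log2 1.74). Rnf128, the ubiquitin ligase GRAIL, had 5 and 53 UMIs (log2 1.69), and Rcsd1 had 10 and 101 UMIs (log2 1.68). Rsl1d1, Wbp2, Ddx39, Stxbp2 and Ctsw were higher under the ketogenic diet in all 12 other clusters. In 9 alternative computations, 9 of these 12 genes stayed at least 2-fold higher in every one, while Ddx39, Rnf128 and Stxbp2 did not reach 2-fold in some, with lowest log2 ratios of 0.92, 0.79 and 0.84.

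Crip1, a small LIM domain protein, was the most abundant of the genes lowest under the ketogenic diet and was found in every Treg. It stood at 14859 CPM [14400–15329.5] in chow Tregs and 5860.1 CPM [5694–6030.0] in ketogenic Tregs, from 3959 and 4706 UMIs, so that chow was 2.54-fold [2.43–2.65] higher. The same direction was seen in each of the 12 other clusters, by a median log2 ratio of −0.77. AA467197, among the genes that set Tregs apart, stood at 803 CPM [699–918] in chow Tregs and 249 CPM [216–286] in ketogenic Tregs (log2 −1.69), was lower in all 12 other clusters, and was the highest in Tregs of all 14 sets in both libraries. Egr1, an immediate early factor downstream of the T cell receptor, stood at 312 against 105 CPM from 83 and 84 UMIs (log2 −1.57), and Ier3, another early response gene, had 36 and 40 UMIs (log2 −1.44). Egr1 and Ier3 were also lower in all 12 other clusters, by median log2 ratios of −1.41 and −1.35, so neither change was particular to Tregs.

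The noncoding gene Gm26870 had 40 and 27 UMIs (log2 −2.15) and was lower in all 12 other clusters. Fn1, fibronectin, had the lowest ratio of all (52 and 20 UMIs, log2 −2.95), but the myeloid-rich chow cell held 69.2% of its chow UMIs. Without the myeloid-rich cells 16 and 4 Fn1 UMIs were left, and leaving out the single cell with the most moved the log2 ratio to −1.41. Ccl9, a chemokine, had 60 and 48 UMIs (log2 −1.91, and −2.72 without the myeloid-rich cells). Both Fn1 and Ccl9 were lower in all 12 other clusters too. Rab11fip1, a recycling endosome protein (30 and 32 UMIs, log2 −1.5), Purb, a nucleic acid-binding protein (37 and 42 UMIs, −1.41), Ski, a repressor of TGF-β signals (27 and 33 UMIs, −1.31), Lztfl1 (45 and 55 UMIs, −1.31) and Dennd4a (29 and 37 UMIs, −1.25) completed the 12. In the same alternatives Fn1, Ccl9, Lztfl1 and Dennd4a each did not reach 2-fold at least once, and the log2 ratio of Fn1 was −0.34 among Tregs with a Foxp3 UMI.

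**Figure D4:**
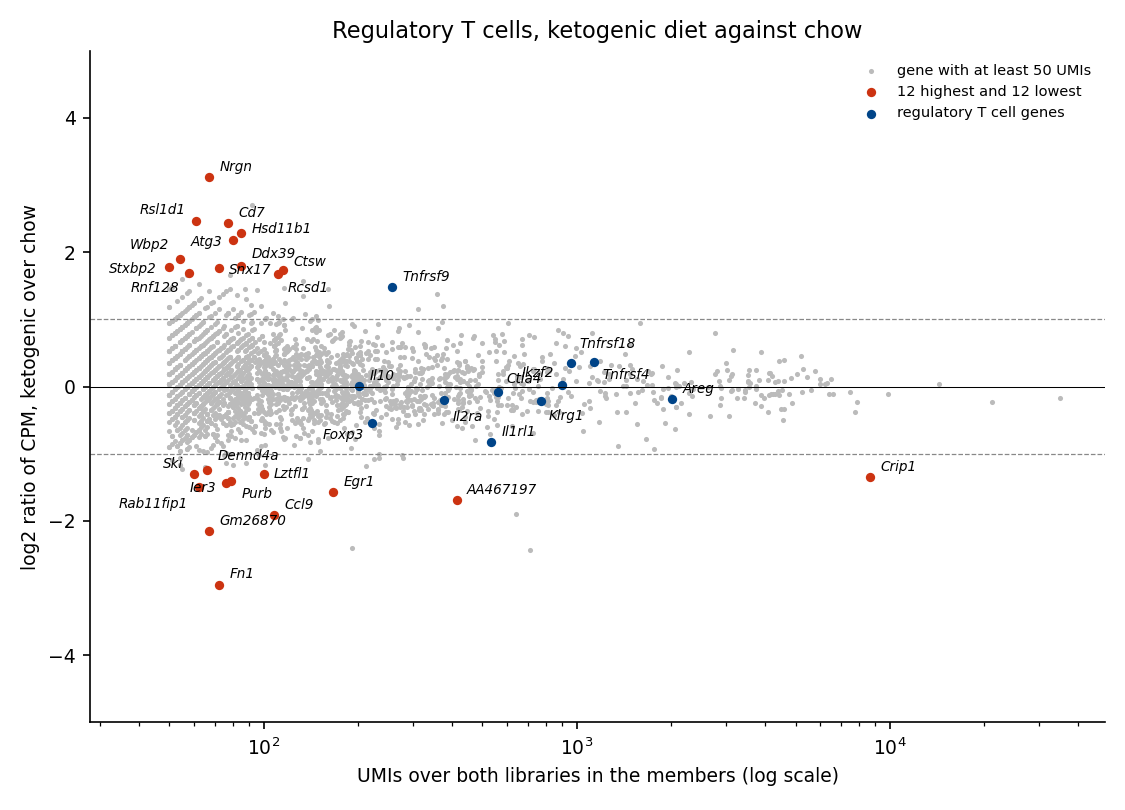
Each grey point is 1 of the 2556 genes with at least 50 UMIs in the regulatory T cells, with its UMIs over both libraries on the x axis (log scale) and the log2 ratio of CPM, ketogenic over chow, on the y axis. Red points are the 12 highest and 12 lowest named genes, blue points are regulatory T cell genes, of which Tnfrsf9 alone lies outside the dashed 2-fold lines.

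Pathway genes were examined in 21 lists over the genes with at least 10 UMIs. Of all 7090 such genes, 784 (11.1%) were at least 2-fold higher and 385 (5.43%) at least 2-fold lower under the ketogenic diet, with a median log2 ratio of 0.08. Of the Treg core list, 22 of 24 genes had enough UMIs, of which 4 were at least 2-fold higher and 0 at least 2-fold lower under the ketogenic diet, with a median log2 ratio of 0.31. The 4 were Tnfrsf9, Lag3, Lrrc32 and Nt5e, and Lag3 passed only through the 0.5 added to its chow count of 0. Tnfrsf9, a costimulatory receptor of activated Tregs, stood at 101 CPM [66.8–147] in chow Tregs and 286 CPM [251–326] in ketogenic Tregs, a ratio of 2.83-fold [1.89–4.38], and had a UMI in 20 of 99 chow and 70 of 185 ketogenic Tregs, or 10.8% and 18.1% after thinning (0.186% and 0.234% in cluster 3). In the other cells of cluster 7 Tnfrsf9 was at 21.6 and 24.5 CPM, and it was higher under the ketogenic diet in 10 of the 12 other clusters. Lag3, an inhibitory receptor, had 0 and 12 UMIs, at least 1.33-fold higher against a floor of 3 chow UMIs, which falls short of 2-fold and leaves 3 genes past it. Lrrc32, which displays latent TGF-β (3 and 23 UMIs, 2.54-fold [0.768–13.2]), and Nt5e, CD73 (1 and 12 UMIs, 3.98-fold [0.589–170.2]), rested on few UMIs, and both intervals include no difference.

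Of the adipose Treg list, 25 of 30 genes had enough UMIs, of which 3 were at least 2-fold higher and 2 at least 2-fold lower under the ketogenic diet, with a median log2 ratio of 0.06, near the median of all genes. Pparg, the factor tied to fat Tregs, had 3 and 42 UMIs, 11.3 CPM [2.32–32.9] against 52.3 CPM [37.7–70.7], a ratio of 4.64-fold [1.48–23.4], with UMIs in 3 of 99 chow and 34 of 185 ketogenic Tregs. With 5 added to each count its log2 ratio was 0.96. Thinned, that was 1.29% and 5.004%, where cluster 3 had 1.81% and 2.17%, so the chow share lay below a level found outside Tregs. Il1rl1 went the other way, at 739 CPM [639.7–850.2] in chow Tregs and 417 CPM [374–464] in ketogenic Tregs, so that chow was 1.77-fold [1.48–2.12] higher, and it had a UMI in 85 of 99 chow and 139 of 185 ketogenic Tregs, or 57.0% and 36.7% after thinning, against 2.22% and 0.984% in cluster 3. Il1rl1 was lower under the ketogenic diet in 10 of the 12 other clusters too, cluster 0 among them. Klrg1 (log2 −0.22), Areg (−0.18), Gata3 (0.105), Rora (−0.21), Id2 (0.23) and Fgl2 (0.06) differed less. Of the factors of effector Tregs, Batf (18 and 92 UMIs, log2 0.73) and Bhlhe40 (28 and 150 UMIs, 0.81) had ratios above 0 and Irf4 (13 and 22 UMIs, −0.85) and Maf (46 and 103 UMIs, −0.44) below it, none past 2-fold. Ccr8, a chemokine receptor of tissue Tregs, had 2 and 17 UMIs, and Cd36, the fatty acid receptor, 6 and 6 UMIs (log2 −1.59, and −2.75 without the myeloid-rich cells).

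Of the suppressive effectors, Tgfb1 (TGF-β1) was at 176 CPM [129.6–235] in chow Tregs and 407 CPM [364–454] in ketogenic Tregs, a ratio of 2.31-fold [1.696–3.205], and the other cells of cluster 7 had 306 and 412 CPM. Among Tregs with a Foxp3 UMI alone its log2 ratio was 0.58. Gzmb was at 236 against 359 CPM (log2 0.59), and Penk at 7.51 against 54.8 CPM from 2 and 44 UMIs (log2 2.56, and 1.82 without the myeloid-rich cells). Ebi3 (14 and 44 UMIs, log2 0.03) and Fgl2 (108 and 340 UMIs, 0.06) were level, and Areg was at 2068 against 1824 CPM. Over the 11 genes of that list with enough UMIs the median was 0.06.

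The interferon response list had the highest median of the 21 lists at the minimum of 10 UMIs, but not at every setting. With a minimum of 50 UMIs its median was 0.61 over 8 genes and that of glycolysis 0.68, and by the mean over cells it was 0.61, against 0.66 for glycolysis and 0.69 for helper cytokines. Of the list, 16 of 22 genes had enough UMIs, of which 8 were at least 2-fold higher and 0 at least 2-fold lower under the ketogenic diet, with a median log2 ratio of 0.996, or 0.73 without the myeloid-rich cells, where 5 of the 8 were still past 2-fold. In all, 14 of the 16 were higher and 2 lower. Igtp, an interferon-induced GTPase, had 8 and 70 UMIs and a ratio of 2.903-fold [1.395–6.99], and Irf1, a transcription factor, 8 and 66 UMIs and 2.74-fold [1.31–6.603]. Both rested on 8 chow UMIs and fell short of 2-fold with 5 added to each count, and Irf1 also in 2 more of the 9 alternatives, with lowest log2 ratios of 0.94 for Igtp and 0.804 for Irf1. The better counted Ifi27l2a stood at 649 against 463 CPM (log2 −0.49), Isg15 at 93.8 against 117 CPM (0.298) and Bst2 at 135 against 112 CPM (−0.28), Ifi27l2a and Bst2 being the 2 lower genes.

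The glycolysis list lay above the median of all genes, though its share past 2-fold, 2 of 15, was near that of all genes. With enough UMIs were 15 of 16 genes, of which 13 were higher and 2 lower, 2 at least 2-fold higher and none lower, with a median log2 ratio of 0.65 that ranged from 0.59 to 0.68 over the alternatives. Gapdh was at 454 CPM [377–543] in chow Tregs and 757 CPM [698–819.8] in ketogenic Tregs, Aldoa (aldolase) at 349 against 605 CPM, Ldha (lactate dehydrogenase) at 424 against 692 CPM and Pkm (pyruvate kinase) at 327 against 514 CPM. Eno1, Tpi1 and Pgk1, of the same pathway, had log2 ratios of 0.202, 0.16 and 0.03. Slc2a1, the glucose transporter GLUT1, had 0 UMIs in chow and 19 in ketogenic Tregs, at least 2.101-fold higher against a floor of 3 UMIs. It stayed past 2-fold in 8 of 9 alternatives, down to a log2 ratio of 0.67. Outside the Tregs, Aldoa, Ldha and Pkm were higher under the ketogenic diet in all 12 other clusters.

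Genes of fat handling diverged and gave no common direction. With enough UMIs were 21 of 27 genes, of which 4 were at least 2-fold higher and 5 at least 2-fold lower under the ketogenic diet, with a median log2 ratio of 0.05. Hadh, an enzyme of β-oxidation, had 5 and 52 UMIs and a ratio of 3.45-fold [1.39–11.1], and Acaa2, another, 9 and 59 UMIs and 2.17-fold [1.07–4.99]. Acaa2 stayed past 2-fold in only 4 of 9 alternatives, down to a log2 ratio of 0.44, and Hadh in 7, down to 0.82. Cpt1a, which lets long-chain fatty acids into mitochondria, had 17 and 15 UMIs, so that chow was 3.42-fold [1.605–7.35] higher. Plin2, which coats lipid droplets, was at 349 against 166 CPM, chow 2.11-fold [1.599–2.77] higher, and Dgat1, which makes triglycerides, at 349 against 174 CPM, chow 2.002-fold [1.52–2.62] higher (log2 −1.004, and −0.96 without the myeloid-rich cells). Scd2, a desaturase, counts among the 4 higher genes with 0 and 11 UMIs, at least 1.22-fold against a floor of 3 UMIs. Leaving out the cell with the most Plin2 UMIs took its log2 ratio to −0.97. Hadh was higher under the ketogenic diet in all 12 other clusters, and Cpt1a and Plin2 were lower in all 12.

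Genes of ketone body metabolism were barely detected. Only 7 of 15 genes reached 10 UMIs, none was past 2-fold, and the median log2 ratio was 0.12 (−0.18 without the myeloid-rich cells). The median was below 0 in each of the 3 alternatives that gave a value, so it has no stable sign. Oxct1, the enzyme that commits ketone bodies to oxidation, had 7 and 25 UMIs, 26.3 against 31.1 CPM and a ratio of 1.18-fold [0.498–3.24]. Acat1, the thiolase of that route, had 13 and 52 UMIs and 1.33-fold [0.713–2.66]. Both intervals include no difference and a 2-fold one. Hcar2, the receptor for β-hydroxybutyrate, had 0 chow and 2 ketogenic UMIs, both from myeloid-rich cells, and Ffar3, a fatty acid receptor, had none, which allows up to 3 UMIs in each library.

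Chemokine receptors and residency genes lay below the median of all genes. With enough UMIs were 17 of 22 genes of the receptor list, of which 11 were lower and 6 higher under the ketogenic diet, with 1 past 2-fold each way (Ccr3 lower, Ccr8 higher) and a median log2 ratio of −0.32. Ccr3, the eotaxin receptor, was at 139 CPM [97.8–191] in chow Tregs and 63.5 CPM [47.3–83.5] in ketogenic Tregs, from 37 and 51 UMIs (log2 −1.13), and was the highest in Tregs of all 14 sets in both libraries. It stayed past 2-fold in 7 of 9 alternatives, the mean over cells giving −0.84. Ccr2, the receptor for the monocyte chemokine CCL2, was at 604 against 447 CPM (log2 −0.44), Cxcr6 at log2 −0.32 and Cxcr4 at −0.62. Of the residency and activation list, 10 of 13 genes were lower, Cd44, the hyaluronan receptor of activated cells, at 428 against 204 CPM (log2 −1.07) and Nr4a3 at 308 against 188 CPM (−0.71). Cd44 stayed past 2-fold in 7 of 9 alternatives and was at −0.59 among Tregs with a Foxp3 UMI. Cd44 and Nr4a3 were lower in all 12 other clusters as well. Immediate early and heat shock genes, which cell isolation also induces, had a median of 0.097 over 24 genes, with Egr1, Ier3 and Atf3 lower and Hspa1a and Hspa1b higher past 2-fold, and without the myeloid-rich cells Hspa1a and Hspa1b were at 0.65 and 0.79, short of 2-fold.

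Of the interleukin-2 and STAT5 list, all 14 genes had enough UMIs and 10 were higher, with a median log2 ratio of 0.28. Socs3, a feedback inhibitor of cytokine receptors, had 2 and 47 UMIs and a ratio of 7.797-fold [2.04–66.3] (log2 2.66, and 2.03 without the myeloid-rich cells), Bcl2, a survival factor, 12 and 86 UMIs and 2.38-fold [1.29–4.78], and Stat5b 3 and 21 UMIs. Among Tregs with a Foxp3 UMI alone the log2 ratio of Bcl2 was −0.053. Il2rb, the β chain of the receptor, was at 124 against 193 CPM (log2 0.62), and Pim1, a STAT5 target, was level at log2 0.03. MHC class I genes (median 0.07), nuclear genes of oxidative phosphorylation (0.04) and ribosomal protein genes (−0.01) lay near the median of all genes, and S100 and cytoskeletal genes below it (−0.25), 16 of 20 being lower, Crip1 alone past 2-fold. In the cell cycle list 10 of 12 genes were higher, with a median of 0.53 (0.36 without the myeloid-rich cells). Its best counted genes, Tubb5 (89 and 352 UMIs, log2 0.39), Hmgb2 (70 and 254 UMIs, 0.26) and Tuba1b (57 and 216 UMIs, 0.32), which resting cells also express, lay below the former median. The 3 genes past 2-fold, Tyms, Top2a and Mcm5, had 1 or 2 chow UMIs each, and without the myeloid-rich cells Mcm5 went from 1.04 to 0.54, short of 2-fold. The list summed to 1009.6 CPM in chow and 1344 CPM in ketogenic Tregs, with at least 3 of its UMIs in 45 of 99 and 132 of 185 cells. These cell counts are unthinned, at median depths of 2236 and 3297 UMIs.

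**Figure D5:**
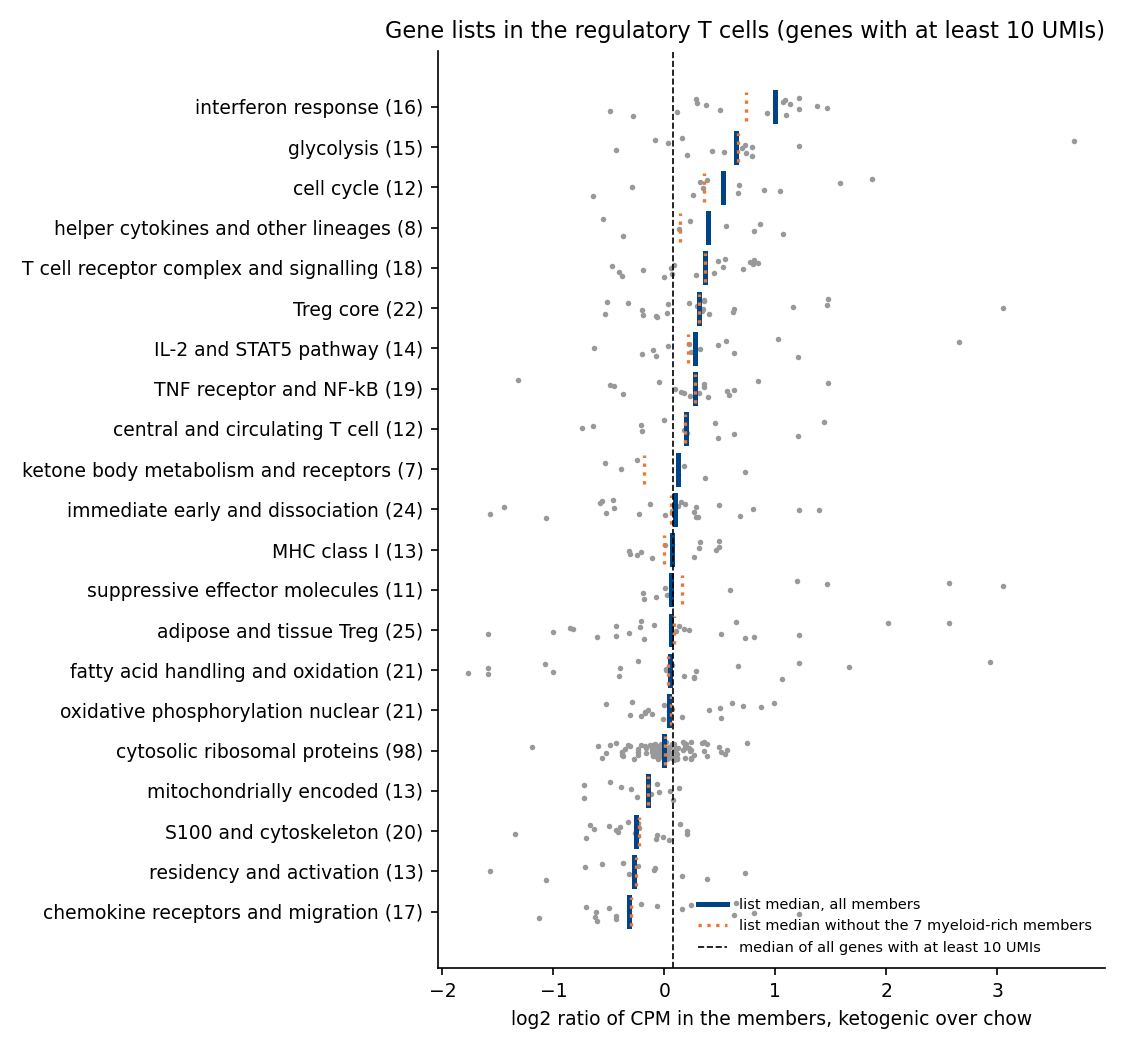
Each grey point is a gene with at least 10 UMIs in the regulatory T cells, placed by its log2 ratio of CPM, ketogenic over chow, in the row of its list, with the number of such genes in parentheses. Solid bars are list medians, dotted bars the medians without the 7 myeloid-rich cells, and the dashed line the median of all genes (0.08), above which interferon response and glycolysis lie farthest and below which chemokine receptors lie farthest.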

How the data were processed

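The authors deposited raw UMI counts per gene and cell and a table with a cluster number for each cell, per the file headers. That deposited table also holds t-SNE coordinates, a score per cell on 2 axes, which were not used. The submitters' processing notes name Cell Ranger, Seurat and mm10, and their versions and the filters on cells are not given in the sources used here. Tregs were picked from these counts with the cluster column, counts were summed over the cells of a set per library and scaled to CPM, and no p-value was computed, since each diet is 1 library. No doublet caller was run. Intervals are at 95%, thinning used the exact hypergeometric expectation at 1000 UMIs, and the Python 3.11.15 code (numpy 2.4.6, scipy 1.17.1, pandas 2.3.3) was tested on simulated data. The members, lists and naming rules were chosen with earlier results of these data known. The diet comparison names the 12 genes with the highest ratio and the 12 with the lowest, from 50 UMIs on, leaving out mitochondrial, immunoglobulin, T cell receptor variable and other-cell marker genes, and, within cluster 7, the 12 on each side by the smaller of the libraries' ratios. The 15 leading genes follow CPM plus 20. Genes of the lists are named besides, and some of their members are not reported here. Positions are from GENCODE M21, which held 28339 of 28692 gene IDs, and upstream sequences from RefSeq, where 4 of 6 genes looked up were found.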

Additional observations from a re-analysis of the deposited data

Results flagged for a closer look

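Cells that the cluster table leaves out also carried the rule's transcripts. Of 87 chow cells without a cluster, 11 (12.6%) had a Foxp3 or Ikzf2 UMI, and of 55 such ketogenic cells 20 (36.4%). They stand here because cells without a cluster entered no comparison. Foxp3 itself was found in 1 chow and 2 ketogenic cells of these, and a Ctla4 UMI beside a rule gene in 0 and 3 cells. Among clustered cells of any cluster the shares were 12.4% and 20.1%, close to the former for chow and below it for ketogenic cells. Without a cluster these cells could not be counted as Tregs.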

How the results depend on the processing

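No paired analysis was possible because each diet is 1 library with no replicate. Under the alternatives, 457 values of single genes between the diets stayed within their counting interval, 28 moved beyond it and 1 that was past 2-fold changed sign. Such intervals are wide for genes with few UMIs, so a value within its interval need not have kept its size. The log2 ratio of Nrgn ranged from 1.73 to 4.49 and that of Cd7 from 1.52 to 4.77. Within cluster 7, 173 values of single genes stayed within their interval and 19 moved beyond it. Of the list medians, which have no counting interval, 74 moved by less than 0.25 and 8 by more. Counting small values too, 23 values of 12 genes and lists changed sign, Il10 and the ketone list among them, and Ccr1 went from −0.60 to 0.33 with Foxp3 alone. The ratio of Treg shares, 1.499, was 3.38 among cells with at least 3000 UMIs (21 chow and 103 ketogenic Tregs), 1.13 without clusters 3 and 8, 0.912 within cluster 7 and 0.645 within clusters 2, 7 and 11, and lay between 1.45 and 1.84 under the other definitions. The counts of genes at least 2-fold higher and lower were 104 and 34 of 2556 compared. They became 388 and 148 of 5050 with a minimum of 20 UMIs, and 22 and 16 of 1354 with 100 UMIs. With Foxp3 alone they were 72 and 21 of 1328, where the lower counts are not lower shares. Of the same 2556 genes, 20 and 46 were past 2-fold with 5 added to each count. Centring on the median gave 76 and 46, subtracting 10% as free RNA 140 and 44, and the mean over cells 121 and 46. Within cluster 7, 17 higher genes of 1218 compared became 4 of 687 among cells with at least 3000 UMIs. Bcl2 reversed to a log2 ratio of −0.053 with Foxp3 alone. The causes were not tested, beyond the fewer cells or genes that some alternatives leave. The alternative without members holding at least 3 UMIs of another cell type's markers left 0 chow and 6 ketogenic cells and was not run. The one without myeloid-rich cells was chosen after seeing the data. Depth limits single genes: the median gene at least 2-fold higher had 8 UMIs in chow Tregs.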
